A study of Mus musculus with 32 samples.

Results

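The colon of *Dnase1l3*-KO mice was compared with that of WT mice early in the AOM/DSS procedure, 5 days after the end of the only DSS cycle, by RNA-Seq of the whole organ. Both groups were chosen by their labels alone and hold 4 mice each, which makes 8 of the 32 libraries of the study, and every gene with enough counts in these 8 libraries (19545 genes) was compared as KO minus WT. All mice were on the C57BL/6 background, were 3 months old at the start, had received the carcinogen AOM (azoxymethane) at 8 mg/kg and had then drunk water with 2.5% DSS (dextran sulfate sodium, which injures the colon epithelium) for 7 days. Tissue was taken on day 19 (D19). The WT mice were *Dnase1l3*+/+ and the KO mice *Dnase1l3*-/- in all cells, so a difference cannot be assigned to the loss of the gene in any particular cell type, and all 8 mice carried the same treatment. No untreated library entered the D19 comparison; untreated colon (D0) and colon after 3 cycles (D80) served only for the comparisons at the end, each with 4 WT and 4 KO mice.

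DSS breaches the epithelial barrier and lets bacteria reach the tissue below. Resident cells then release chemokines that draw neutrophils through CXCR2 and monocytes through CCR2, lymphocytes that arrive later make interferon-γ, which induces antigen presentation and guanylate-binding proteins, and proteases, matrix and growth factors accompany the closing of the wound. DNASE1L3 is a secreted DNase, made mainly by dendritic cells and macrophages, that digests DNA in chromatin released from dying cells.

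The labels give each mouse a prefix in front of its number, 97 for WT mice 685 and 686, 115 for WT mouse 805 and KO mice 803 and 804, and 116 for WT mouse 812 and KO mice 811 and 813. What the prefix stands for is not stated. No KO mouse had prefix 97, so the difference between prefix 97 and the others cannot be told apart from genotype wherever the WT mice of prefix 97 carry a result. The medians of most lists below are therefore also given within prefixes 115 and 116, from 2 WT and 4 KO libraries. Values of single libraries are CPM (counts per 1e+06 counts of a library whose size was scaled by TMM over the 8 libraries) and always follow the order WT 685, 686, 805 and 812, then KO 803, 804, 811 and 813. Total counts ranged from 18951121 to 47623288, with the lowest in WT mouse 685. KO mice 811 and 813 stood apart in RNA composition. Mitochondrially encoded mRNAs took 10.6% and 7.04% of their counts against 5.09% to 6.22% in the other 6 libraries, and ribosomal protein mRNAs took 8.74% and 7.23% against 4.26% to 4.63%. The rank correlation between gene length and a gene's deviation from the mean of the 8 libraries, over 19098 genes, was -0.51 and -0.03 in these libraries and 0.25 to 0.41 in the others. Colon markers were present in each library, for example *Epcam* of epithelium at 1125 to 1403 CPM and *Muc2* of goblet cells at 1569 to 3563 CPM, and the lung and stomach genes *Sftpc* and *Pga5* were at or near 0. The other genes picked as foreign to colon epithelium were not absent. *Alb* was at 9.77 CPM in WT mouse 685 and at 0.539 to 1.91 CPM elsewhere. *Insl6* was at 4.31 to 11.7 CPM, highest in KO mice 811 and 813. The reasons were not tested. Posterior Hox genes, which mark distal gut, had a mean of 2.61 to 3.03 log2 CPM in WT and 2.14 to 2.49 in KO libraries, without overlap, and their part in the results was not tested.

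*Dnase1l3* itself (chr14:7964533-7994573, minus strand of GRCm38) had 9.12, 7.56, 8.92 and 8.10 CPM in WT and 3.82, 4.24, 0.757 and 7.11 CPM in KO colon. Each KO library was below each WT library, and the level in KO mouse 813 was close to that in WT (log2 fold change -1.07, SE 0.50, adjusted p = 0.444 in edgeR's quasi-likelihood test with Benjamini-Hochberg adjustment). The deleted part of the gene is not named in the sources used here, and reads from the rest of the gene would be counted all the same, so the labels are not tested by this gene.

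KO colon at D19 had higher transcripts of neutrophils, of the chemokines that attract neutrophils and monocytes, of phagocyte receptors and of matrix proteases, and lower transcripts of some colonocyte transporters and of the mucus protease gene *Clca1*, but no single gene passed the threshold. EdgeR's quasi-likelihood test called 0 of 19545 genes (0%) by the thresholds for a DEG, which were a change of more than 2-fold with an adjusted p under 0.05. The lowest adjusted p was 0.298, and 2213 genes (11.3%) had an unadjusted p under 0.05. With the same thresholds DESeq2 called 218 genes as higher in KO (1.01% of 21627) and 90 as lower (0.416%), and limma voom with sample weights called 393 and 173. Since edgeR made no call, the genes below are described as higher or lower by their values, and none is a DEG in the main test. As a second description, 359 genes (1.84%) lay higher in each KO library than in each WT library with a fold change over 2, and 135 (0.691%) lay lower. The sections on gene groups count such genes as nonoverlapping. In bulk tissue, more cells of a type and more RNA per cell cannot be told apart.

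The WT mice of prefix 97 carried much of this separation. The lowest of the 8 libraries was from prefix 97 for 333 of the 359 higher genes, and the highest was from prefix 97 for 126 of the 135 lower genes. KO mouse 811 was the highest KO library for 176 of the 359 and the lowest for 91 of the 135. Within prefixes 115 and 116, 212 of the 359 still had a fold change over 2 (672 of 20178 genes, 3.33%, did so among all genes), and their median log2 fold change was 1.08 instead of 1.39. Of the 135 lower genes, 67 kept a fold change over 2 (195 genes, 0.966%, among all genes), with a median of -0.99 instead of -1.25. Both sets had been picked for separate groups in all 8 libraries, which include those of prefixes 115 and 116. Their direction within these prefixes was thus largely set by the choice, and the shares kept are not separate support. No gene was called with the prefix as a block (lowest adjusted p 0.981, 509 genes at an unadjusted p under 0.05) or within prefixes 115 and 116 alone (lowest adjusted p 0.999, 343 genes).

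**Figure D1:**
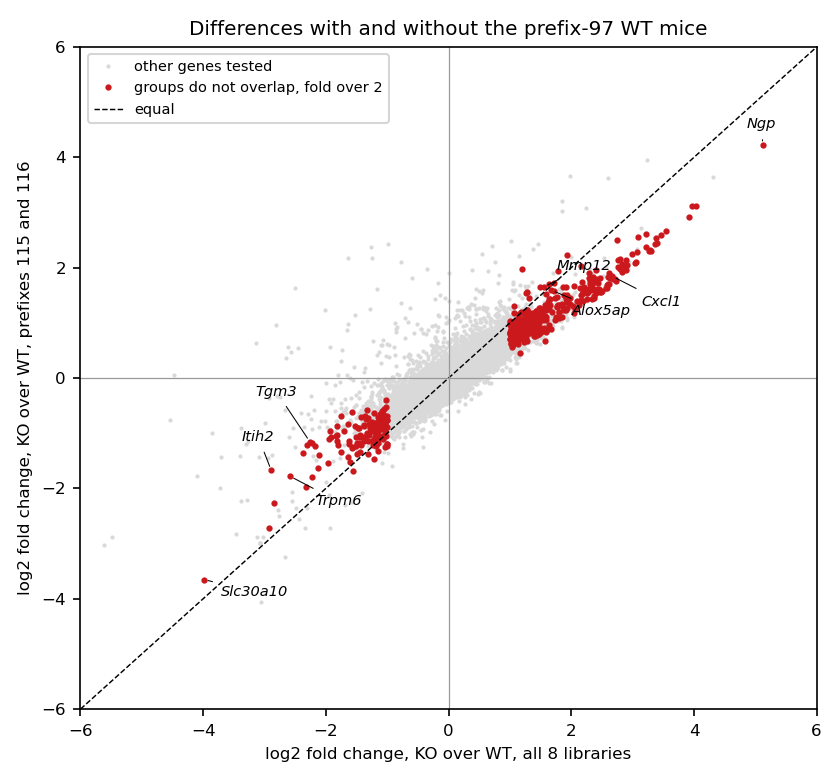
Log2 fold change of KO over WT for each gene from all 8 libraries (horizontal axis) and from the 6 libraries with label prefixes 115 and 116 (vertical axis). Red points are genes whose groups do not overlap and differ by a fold change over 2, gray points are other genes tested, and the dashed line marks equal values. The sign of the red points on the vertical axis largely follows from that choice, and most of them lie nearer to 0 on it.

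Transcripts of neutrophil chemokines and of neutrophils gave the largest list medians. The list of neutrophil chemokines and growth factors had 7 measured genes, all higher in KO, with a median log2 fold change of 2.67 beside 0.01 over all genes tested (50.8% of which were above 0), and 5 of the 7 were nonoverlapping. *Cxcl1* (chr5:90891241-90893115, plus strand), a ligand of the neutrophil receptor CXCR2, had 0.601, 0.817, 8.86 and 1.97 CPM in WT and 16.6, 28.1, 14.5 and 19.7 CPM in KO colon. The KO libraries lay between 14.5 and 28.1 CPM and all above the highest WT library, mouse 805 (log2 fold change 2.67, SE 0.77, adjusted p = 0.359, edgeR). *Cxcl2*, a related ligand of CXCR2, had 0.0501, 0.0495, 4.11 and 4.47 CPM in WT and 28.3, 20.8, 8.37 and 27.7 CPM in KO colon. It was nearly absent in the WT mice of prefix 97, and KO mouse 811 had the lowest KO level, which still exceeded both other WT mice (log2 fold change 3.26, SE 1.09). *Cxcl5*, a CXCR2 ligand made by epithelium and stroma, had 0.952, 2.18, 30.1 and 12.7 CPM in WT and 68.1, 68.0, 84.4 and 36.3 CPM in KO colon. The margin between KO mouse 813 and WT mouse 805 was small, so the groups were only just separate (log2 fold change 2.48, SE 0.89). *Csf3*, the growth factor that drives neutrophil production in the marrow, had 0, 0, 3.14 and 0.754 CPM in WT and 8.62, 9.33, 3.52 and 5.11 CPM in KO colon, again with KO mouse 811 just above WT mouse 805. Within prefixes 115 and 116 the median of the 7 genes was 1.75, and all 7 remained above 0. With at least 10 counts required in each library, which drops genes near 0 in WT, the median was 2.46.

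*Cxcl1* and *Cxcl2* lie side by side on chromosome 5, and their promoters are shown because both genes were low in the same WT mice and high in all KO mice. They are RefSeq sequences of GRCm38.p6, plus strand, 250 bases before to 50 after the start, at chr5:90890995-90891294 and chr5:90903649-90903948. Capitals mark matches, on either strand, to the NF-κB type letters GGNNTTTCC. Both promoters hold GGAATTTCC, 70 bases before the start in *Cxcl1* and 96 bases before it in *Cxcl2*, and each holds a further match 89 and 77 bases before the start.
Cxcl1: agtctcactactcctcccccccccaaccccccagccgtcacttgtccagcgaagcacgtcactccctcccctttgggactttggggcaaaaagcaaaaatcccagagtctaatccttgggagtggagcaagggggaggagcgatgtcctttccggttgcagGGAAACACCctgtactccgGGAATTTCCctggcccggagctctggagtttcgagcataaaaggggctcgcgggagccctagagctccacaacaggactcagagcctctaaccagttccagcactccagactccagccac
Cxcl2: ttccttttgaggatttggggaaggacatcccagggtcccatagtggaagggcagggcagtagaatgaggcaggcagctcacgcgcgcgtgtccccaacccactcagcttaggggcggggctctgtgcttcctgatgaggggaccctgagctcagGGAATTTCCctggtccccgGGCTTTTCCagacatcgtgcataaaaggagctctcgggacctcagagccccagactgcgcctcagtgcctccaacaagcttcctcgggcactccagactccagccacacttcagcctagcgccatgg

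Transcripts of the neutrophils themselves followed. Of 26 measured neutrophil granule and marker genes, 26 were higher in KO with a median log2 fold change of 2.59 (1.71 within prefixes 115 and 116), 22 were nonoverlapping and DESeq2 called 16. Members near 0 in WT, such as *Prtn3* and *Ngp* below, passed the count filter through the KO libraries and could hardly come out lower. The count of 26 and the median are thus partly set by the filter. With at least 10 counts required in each library the median was 2.21. Relative to the WT mean, the mean log2 CPM of the list was -1.59, -1.13, 1.85 and 0.87 in the WT libraries and 3.41, 3.03, 3.20 and 3.40 in the KO libraries. The 4 KO mice were alike, whereas the WT mice spread over more than 3 log2 units, and both WT mice of prefix 97 were far below the others. Among receptors, *Fpr2*, a receptor for formylated bacterial peptides, had 0.551, 0.297, 2.86 and 1.34 CPM in WT and 6.79, 5.89, 19 and 9.33 CPM in KO colon. KO mouse 811 had the highest level and no KO library reached down to WT mouse 805 (log2 fold change 3.0, SE 0.68). *Trem3*, an activating receptor of myeloid cells, had 0, 0.0248, 0.409 and 0.267 CPM in WT and 1.16, 0.933, 2.95 and 3.02 CPM in KO colon, with the lowest KO level more than 2-fold above the highest WT level (log2 fold change 3.38, SE 0.79). *Il1r2*, the decoy receptor for interleukin-1 that neutrophils carry, had 1.40, 1.56, 6.28 and 4.01 CPM in WT and 18.3, 13.5, 14.1 and 13.7 CPM in KO colon. Its KO libraries formed a narrow range of 13.5 to 18.3 CPM, and the DESeq2 adjusted p was 0.00159 (log2 fold change 2.16, SE 0.46 in edgeR).

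Granule genes made early and late in neutrophil maturation were both higher. *Prtn3*, proteinase 3 of primary granules, had 0.100, 0.0743, 0.179 and 0.0729 CPM in WT and 0.506, 0.689, 1.21 and 0.582 CPM in KO colon. All WT libraries, including those of prefixes 115 and 116, stayed below each KO library, and the log2 fold change of 2.75 (SE 0.45) was 2.5 within prefixes 115 and 116. *Ngp*, a protein of secondary granules, had 0, 0, 0.715 and 0.0243 CPM in WT and 19.6, 4.53, 2.31 and 1.57 CPM in KO colon. Among the named genes above 0 it had the largest fitted difference, with by far the highest level in KO mouse 803 (log2 fold change 5.12, SE 1.30). *Padi4*, which citrullinates histones when neutrophils cast out chromatin, had 0.150, 0.0495, 0.715 and 0.559 CPM in WT and 1.93, 1.53, 1.06 and 2.33 CPM in KO colon, with all KO libraries above all WT libraries (log2 fold change 2.17, SE 0.62). *Lcn2*, lipocalin 2, which binds bacterial siderophores and is made by neutrophils and epithelium, had 3.46, 3.02, 39.2 and 16.8 CPM in WT and 138, 111, 135 and 70.7 CPM in KO colon. All 4 KO libraries exceeded the highest WT library, mouse 805, (log2 fold change 2.86, SE 0.77, adjusted p = 0.335, edgeR).

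**Figure D2:**
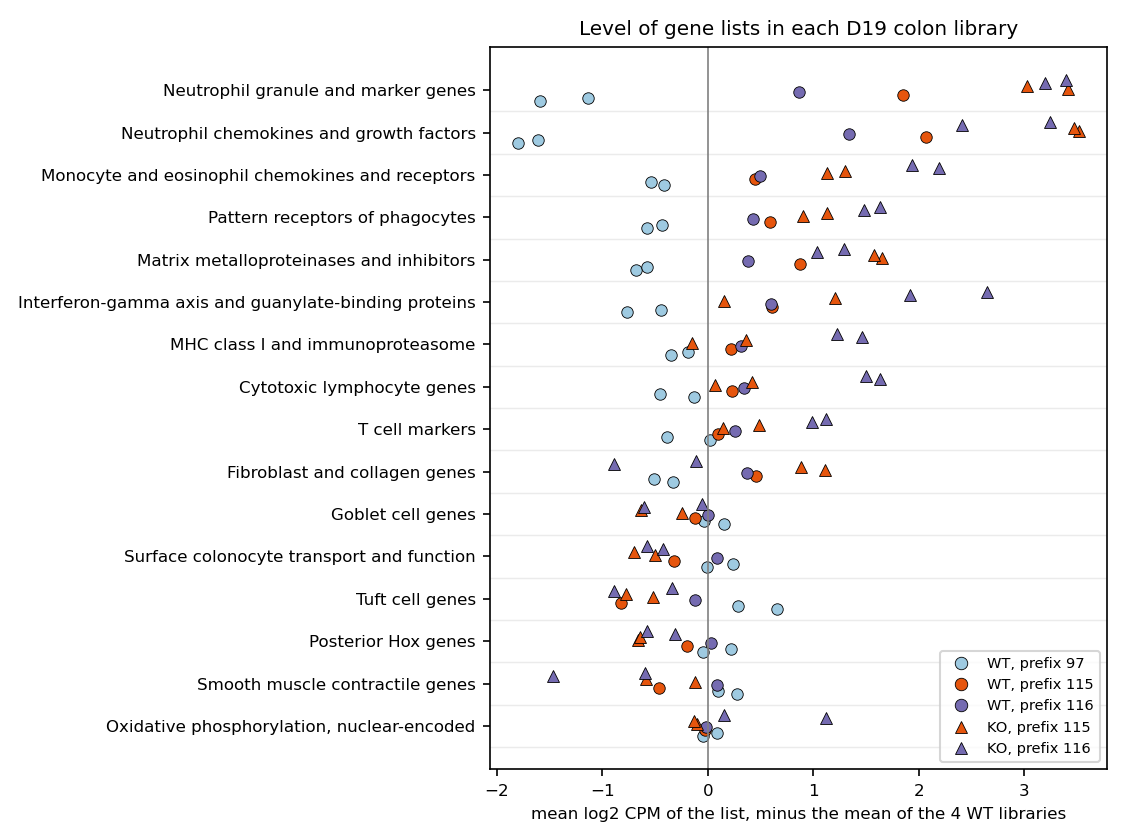
Mean log2 CPM of the measured genes of 16 gene lists in each D19 library, minus the mean of the 4 WT libraries (horizontal axis, log2 units). Circles are WT and triangles KO mice, colored by label prefix; the neutrophil list lies between 3.03 and 3.41 in KO and between -1.59 and 1.85 in WT libraries, while the interferon-γ list overlaps between the groups.

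Transcripts of chemokines and receptors of monocytes were also higher in KO colon. All 15 measured monocyte and eosinophil chemokines and receptors were above 0 (median 1.53, and 1.15 within prefixes 115 and 116), 10 were nonoverlapping and DESeq2 called 9. *Ccl2*, the main ligand of CCR2 on inflammatory monocytes, had 1.30, 1.76, 11.7 and 4.16 CPM in WT and 17.5, 27.9, 42.8 and 27.1 CPM in KO colon. WT mouse 805 came closest to the KO range, and KO mouse 811 was highest (log2 fold change 2.59, SE 0.65, adjusted p = 0.317, edgeR). *Ccl8*, a further chemokine of macrophages, had 14.7, 17.1, 32.2 and 32 CPM in WT and 39.7, 42.7, 151 and 97.3 CPM in KO colon. The KO mice of prefix 115 were only slightly above WT, and those of prefix 116 were several times higher (log2 fold change 1.78, SE 0.48). *Ccr2*, the receptor on the incoming monocytes, had 14.6, 14.1, 22.3 and 21.2 CPM in WT and 30.8, 39.5, 39.1 and 34.3 CPM in KO colon, a smaller but even shift with a log2 fold change of 0.99 (SE 0.21). *Ccr1*, a receptor shared by monocytes and neutrophils, had 11, 10.5, 17.5 and 14.3 CPM in WT and 25.0, 25.2, 44.8 and 32.3 CPM in KO colon, also nonoverlapping (log2 fold change 1.25, SE 0.26).

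Receptors by which phagocytes sense bacteria and immune complexes were higher as a group. All 20 measured pattern receptors were above 0 (median 1.10, and 0.93 within prefixes 115 and 116), 10 were nonoverlapping and DESeq2 called 8. *Fcgr3*, an activating receptor for IgG, had 25.1, 24.9, 36.4 and 33.9 CPM in WT and 56.1, 57.6, 96.2 and 88.4 CPM in KO colon. The KO values began well above the WT values and the SE was small (log2 fold change 1.31, SE 0.25, DESeq2 adjusted p = 0.00138). Its signaling partner *Fcer1g* had 16.8, 16.5, 28.8 and 24 CPM in WT and 35.9, 43.3, 125 and 66.7 CPM in KO colon, and *Tyrobp*, the adaptor of TREM receptors, had 24.8, 22.2, 32.2 and 31.7 CPM in WT and 42.5, 49.3, 146 and 90.6 CPM in KO colon. Both were highest in KO mouse 811 (log2 fold change 1.65, SE 0.40, and log2 fold change 1.57, SE 0.38). *Fcgr4*, a second activating IgG receptor, had 4.86, 4.78, 16.2 and 13.5 CPM in WT and 21.0, 26.7, 84.1 and 48.4 CPM in KO colon (log2 fold change 2.19, SE 0.56), with the same order of libraries.

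Markers of macrophages differed less than those of neutrophils. Of 21 macrophage and monocyte genes, 17 were above 0 with a median of 0.78, and 4 were nonoverlapping with a fold change over 2. The median was 0.58 within prefixes 115 and 116 and 0.52 without KO mouse 811. *Cd68*, a lysosomal protein of macrophages, had 15, 14.9, 19.8 and 18.9 CPM in WT and 24.8, 24, 37.0 and 29.3 CPM in KO colon (log2 fold change 0.75, SE 0.20). *Mertk* and *Cx3cr1*, which mark resident tissue macrophages, were below 0, at a log2 fold change of -0.47 (SE 0.46) for the former and -0.30 (SE 0.30) for the latter. KO mouse 811 was far below the other libraries in both, at 3.79 and 5.79 CPM, and the other 3 KO mice overlapped with WT. *Chil4*, a chitinase-like protein of activated macrophages and epithelium, had 0, 0.0495, 0.741 and 0.194 CPM in WT and 5.10, 3.15, 7.27 and 1.14 CPM in KO colon, nonoverlapping and led by KO mouse 811 (log2 fold change 3.96, SE 0.91).

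Cytokine genes were higher in part. Of 17 measured interleukin-1 family genes, 16 were above 0 (median 1.11, and 0.65 within prefixes 115 and 116) and 4 were nonoverlapping. *Il1a*, an alarmin released by damaged epithelium and made by myeloid cells, had 0.351, 0.173, 4.01 and 2.82 CPM in WT and 12.5, 12.1, 5.30 and 14.8 CPM in KO colon (log2 fold change 2.58, SE 0.82). *Il1f9*, interleukin-36γ of epithelium, had 0, 0.0743, 0.945 and 0.778 CPM in WT and 2.37, 2.15, 1.74 and 5.17 CPM in KO colon (log2 fold change 2.59, SE 0.82). Both were close to 0 in the WT mice of prefix 97 and exceeded all WT mice in KO. *Il1rl1*, the receptor of interleukin-33, had 12.6, 15, 48.5 and 23.8 CPM in WT and 81.8, 99.4, 101 and 40.1 CPM in KO colon, where KO mouse 813 was below WT mouse 805 (log2 fold change 1.69, SE 0.46).

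The interleukin-17 and interleukin-22 axis was less uniform. Of 13 measured genes, 9 were above 0 (median 0.53, and 0.32 within prefixes 115 and 116) and 1 was nonoverlapping with a fold change over 2. Without KO mouse 813 the median was 0.078. That gene was *Il17a* (chr1:20730905-20734496, plus strand), the cytokine of Th17 and γδ T cells that induces neutrophil chemokines in epithelium, with 0, 0.0743, 0.639 and 0.438 CPM in WT and 1.52, 2.29, 1.89 and 1.98 CPM in KO colon. The lowest KO library was more than 2-fold above the highest WT library (log2 fold change 2.63, SE 0.68, adjusted p = 0.326 in edgeR, adjusted p = 0.00784 in DESeq2). *Il22*, which drives epithelial repair and antimicrobial proteins, had 0, 0.0248, 0.230 and 0.267 CPM in WT and 0.132, 0.644, 1.06 and 2.37 CPM in KO colon, so KO mouse 803 lay within the WT range (log2 fold change 2.85, SE 0.95). *Il22ra2*, the soluble inhibitor of interleukin-22 made by dendritic cells, was lower in KO, with 3.56, 2.45, 1.74 and 3.01 CPM in WT and 0.901, 0.644, 1.86 and 1.64 CPM in KO colon, and KO mouse 811 lay just above WT mouse 805 (log2 fold change -1.10, SE 0.38). The list of interleukin-6 family and STAT3 target genes was counted apart. Of its 13 measured genes, 12 were above 0 (median 0.63, and 0.24 within prefixes 115 and 116) and 3 were nonoverlapping. *Osm*, oncostatin M of myeloid cells, had 0.451, 0.272, 2.53 and 2.58 CPM in WT and 7.91, 6.95, 3.29 and 7.58 CPM in KO colon, with KO mouse 811 the lowest of the KO mice (log2 fold change 2.12, SE 0.67). *Socs3*, the feedback inhibitor that STAT3 induces, had 10.5, 15.8, 58.4 and 38.0 CPM in WT and 67.0, 98.4, 87.7 and 156 CPM in KO colon, nonoverlapping (log2 fold change 1.74, SE 0.52).

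The interferon-γ axis had a different shape. All 21 measured genes of the list were above 0 with a median log2 fold change of 1.77, yet 0 were nonoverlapping. The median was 1.16 within prefixes 115 and 116, 0.81 with the prefix as a block and 0.65 with voom weights. Relative to the WT mean, the list was at -0.77, -0.44, 0.61 and 0.60 in WT and at 0.15, 1.20, 1.91 and 2.65 in KO libraries. KO mouse 803 thus lay within the WT range, and the values were highest in KO mice 811 and 813, the libraries with high mitochondrial and ribosomal protein shares, whose part in this result was not tested. *Ifng* itself had 0.100, 0, 0.255 and 0.146 CPM in WT and 0.176, 0.333, 3.75 and 6.14 CPM in KO colon. It was within or just above the WT range in the KO mice of prefix 115 and far above it in those of prefix 116 (log2 fold change 4.31, SE 1.24, adjusted p = 0.359, edgeR). *Cxcl9* (chr5:92321347-92328079, minus strand), a chemokine that interferon-γ induces and that attracts activated T cells, had 1.85, 5.08, 19.8 and 14.3 CPM in WT and 12.1, 39.9, 126 and 130.5 CPM in KO colon, with KO mouse 803 within the WT range (log2 fold change 2.90, SE 0.87). *Cxcl10*, its relative, had 1.40, 2.40, 10.04 and 7.71 CPM in WT and 7.47, 26.1, 77.6 and 72.4 CPM in KO colon (log2 fold change 3.08, SE 0.82).

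*Gbp2* (29.5, 44.4, 64.5 and 87.2 CPM in WT and 59.2, 109, 139 and 251 CPM in KO colon), a GTPase that attacks the vacuoles of intracellular microbes, was highest in KO mouse 813 and overlapped at KO mouse 803 (log2 fold change 1.31, SE 0.46); it is outside the naming rule and was added, after its values had been seen, for its promoter. The promoters of *Gbp2* (chr3:142620413-142620712, plus strand) and *Cxcl9* (chr5:92328030-92328329, minus strand) are shown as those of an interferon-induced effector and chemokine, from RefSeq on GRCm38.p6. Capitals mark matches on either strand to the interferon-response type letters TTCNNTTTC, to the NF-κB type letters and to the AP-1 type letters TGANTCA. In *Gbp2*, TTCACTTTC begins 58 bases before the start and TGAGTCA 102 bases before it. In *Cxcl9*, GAAATGGAA is an interferon-response type match on the reverse strand 175 bases before the start, GGGTTTTCC and GGGATTTCC are NF-κB type matches 130 and 42 bases before it, and TGACTCA lies 32 bases after it.
Gbp2: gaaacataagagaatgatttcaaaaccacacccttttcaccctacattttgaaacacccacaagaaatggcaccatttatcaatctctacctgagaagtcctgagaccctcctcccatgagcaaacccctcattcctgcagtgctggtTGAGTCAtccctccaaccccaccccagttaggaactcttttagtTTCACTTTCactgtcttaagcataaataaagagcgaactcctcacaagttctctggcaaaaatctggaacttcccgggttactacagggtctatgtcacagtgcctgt
Cxcl9: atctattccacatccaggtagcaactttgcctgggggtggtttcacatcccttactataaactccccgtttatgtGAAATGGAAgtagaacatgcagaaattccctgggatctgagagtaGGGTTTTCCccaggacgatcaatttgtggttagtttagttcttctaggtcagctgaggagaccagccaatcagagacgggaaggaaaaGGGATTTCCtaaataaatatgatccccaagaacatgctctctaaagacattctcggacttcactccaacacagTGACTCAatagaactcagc

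Antigen presentation followed the interferon-γ axis. All 13 measured MHC class I and immunoproteasome genes were above 0 (median 0.92) and all 9 MHC class II genes were (median 0.85), with 0 nonoverlapping in either list. For class I the median was 0.60 within prefixes 115 and 116, 0.44 with the prefix as a block, 0.46 without KO mouse 811 and 0.10 with voom weights. For class II it was 0.73 within prefixes 115 and 116, 0.53 with the block and 0.49 without KO mouse 811. *Psmb8*, a catalytic subunit of the immunoproteasome, had 20.7, 26.9, 39.8 and 47.0 CPM in WT and 25.8, 42.3, 221 and 109.5 CPM in KO colon. KO mouse 811 was far above all other libraries (log2 fold change 1.57, SE 0.61). *Tap1*, which pumps peptides into the endoplasmic reticulum, had 26.9, 35.8, 56.7 and 59.9 CPM in WT and 40.4, 69.9, 175 and 154 CPM in KO colon (log2 fold change 1.29, SE 0.47). *H2-Ab1*, a chain of MHC class II, had 194, 159, 182 and 227 CPM in WT and 148, 195, 629.5 and 465 CPM in KO colon (log2 fold change 0.91, SE 0.43). In all 3 genes KO mouse 803 was not above the WT range, and KO mice 811 and 813 exceeded every WT mouse. With sample weights in voom, which gave mouse 811 a weight of 0.0391 and mouse 813 one of 0.253 against 1.28 to 3.5 for the others, the log2 fold changes of *H2-Ab1* and of *Cd74*, the invariant chain of MHC class II, were -0.10 and -0.085.

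Interferon-stimulated genes of the type I response were higher in part. Of 31 measured, 26 were above 0 (median 0.64, and 0.29 within prefixes 115 and 116) and 0 were nonoverlapping. *Isg15*, a ubiquitin-like modifier, had 4.76, 8.17, 15.3 and 19.7 CPM in WT and 10.2, 19.7, 77.3 and 49.1 CPM in KO colon (log2 fold change 1.70, SE 0.64), and *Ifi27l2a* had 13.5, 16.4, 25.3 and 28.1 CPM in WT and 26.4, 40.5, 162 and 118 CPM in KO colon (log2 fold change 2.06, SE 0.56). Both were higher in KO mice 811 and 813 than in any other mouse. *Ifih1*, which encodes the RNA sensor MDA5, went the other way at 51.4, 56.3, 57.9 and 68.7 CPM in WT and 45.3, 59.2, 16.9 and 55.4 CPM in KO colon, with its lowest level in KO mouse 811 (log2 fold change -0.41, SE 0.34). In the list of DNA sensing genes and DNases, 11 of 16 were above 0 with a median of 0.13 (0.21 within prefixes 115 and 116). Only *Ifi204*, a DNA sensor, was nonoverlapping and higher over 2-fold, with 4.01, 4.71, 9.66 and 11.7 CPM in WT and 13.2, 18.3, 18.9 and 27.6 CPM in KO colon (log2 fold change 1.37, SE 0.38), and only *Dnase1l3* was so in the lower direction.

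**Figure D3:**
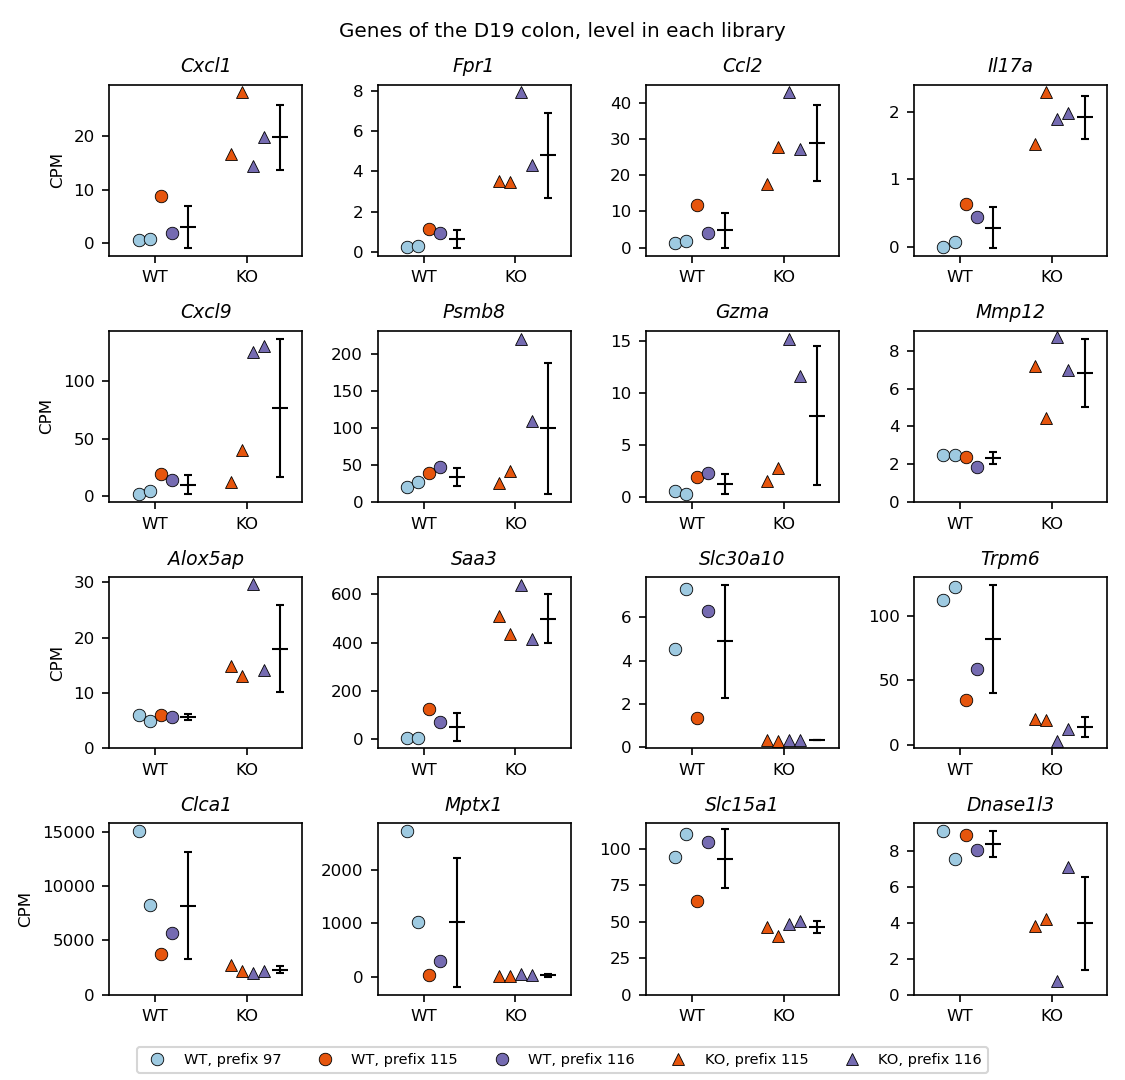
CPM (vertical axis, linear, own scale in each panel) of 16 genes in each D19 library. Circles are WT and triangles KO mice, colored by label prefix, with the group mean and SD at the right of each group; *Cxcl1*, *Fpr1*, *Ccl2* and *Il17a* do not overlap between groups, *Cxcl9*, *Psmb8* and *Gzma* are highest in the KO mice of prefix 116, and *Mmp12* and *Alox5ap* are even across the 4 WT mice.

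Lymphocyte transcripts were higher in KO colon, most of them with overlap between the groups. Of 18 T cell genes 17 were above 0 (median 0.76), of 13 cytotoxic genes 12 (median 1.04) and of 14 regulatory and checkpoint genes 13 (median 0.94), and 1, 3 and 2 of them were nonoverlapping with a fold change over 2. Within prefixes 115 and 116 these medians were 0.57, 0.96 and 0.70. *Gzmb*, granzyme B of killer lymphocytes, had 1.05, 0.570, 3.04 and 4.06 CPM in WT and 6.22, 7.51, 12.6 and 9.52 CPM in KO colon. The KO range of 6.22 to 12.6 CPM lay above the WT range (log2 fold change 2.02, SE 0.56, adjusted p = 0.345 in edgeR, DESeq2 adjusted p = 0.0215). *Gzma*, granzyme A, had 0.601, 0.297, 1.92 and 2.33 CPM in WT and 1.6, 2.82, 15.3 and 11.7 CPM in KO colon, overlapping at KO mouse 803 and several times higher in the KO mice of prefix 116 (log2 fold change 2.58, SE 0.84). *Cd3d*, a chain of the T cell receptor complex, had 1.6, 0.966, 2.09 and 2.60 CPM in WT and 1.93, 2.53, 10.8 and 9.46 CPM in KO colon, with the same split by prefix among the KO mice (log2 fold change 1.76, SE 0.59). *Trdc*, the constant chain of γδ T cells, had 0.451, 0.372, 1.43 and 1.19 CPM in WT and 3.14, 3.07, 1.78 and 1.92 CPM in KO colon. Here the KO mice of prefix 115 were the highest, and all 4 exceeded WT (log2 fold change 1.5, SE 0.45). *Tnfrsf9*, the costimulatory receptor 4-1BB, had 0.801, 0.495, 2.76 and 2.48 CPM in WT and 5.96, 6.11, 7.46 and 8.73 CPM in KO colon (log2 fold change 2.09, SE 0.50), and *Ctla4*, an inhibitory receptor of T cells, had 1.45, 0.619, 2.43 and 2.02 CPM in WT and 3.98, 5.13, 3.11 and 4.31 CPM in KO colon (log2 fold change 1.34, SE 0.39), both without overlap.

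Adhesion molecules by which leukocytes leave the blood were higher on the leukocyte side. Of 13 leukocyte adhesion genes, 11 were above 0 (median 0.61, and 0.53 within prefixes 115 and 116) and 3 were nonoverlapping. *Itgb2*, the β chain of the leukocyte integrins, had 19.8, 16.7, 24.9 and 22.9 CPM in WT and 37.4, 37.8, 50.1 and 51.2 CPM in KO colon, with narrow ranges in both groups (log2 fold change 1.06, SE 0.20, DESeq2 adjusted p = 0.00138). Of 19 endothelial genes, 13 were above 0 with a median of 0.19 (0.07 within prefixes 115 and 116) and 0 were nonoverlapping. *Sele*, E-selectin of activated endothelium, had 0.301, 0.272, 1.81 and 0.681 CPM in WT and 4.66, 4.15, 1.25 and 2.61 CPM in KO colon, and KO mouse 811 lay below WT mouse 805 (log2 fold change 2.02, SE 0.64). *Vcam1*, the ligand of α4 integrins, was higher in all 4 KO mice, with 20.8, 17.7, 40.1 and 30.9 CPM in WT and 55.7, 58.8, 54.6 and 43.8 CPM in KO colon, by just under 2-fold (log2 fold change 0.96, SE 0.27).

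Proteases and wound-repair genes were higher in KO colon. Of 20 matrix metalloproteinases and inhibitors, 17 were above 0 (median 1.17, 0.70 within prefixes 115 and 116 and 0.73 with the block), 8 were nonoverlapping and DESeq2 called 7. *Mmp13*, a collagenase of stromal cells, had 4.81, 5.08, 49.2 and 23 CPM in WT and 119.9, 134, 76.2 and 62.6 CPM in KO colon, so WT mouse 805 came close to KO mouse 813 (log2 fold change 2.26, SE 0.72). *Mmp7*, matrilysin of injured epithelium, had 1.20, 1.31, 6.0 and 2.94 CPM in WT and 7.25, 8.49, 15.9 and 12.6 CPM in KO colon (log2 fold change 1.93, SE 0.52). *Adam8*, a sheddase of neutrophils and macrophages, had 4.16, 2.30, 6.87 and 6.76 CPM in WT and 15.2, 14.9, 7.95 and 16.8 CPM in KO colon, with KO mouse 811 near WT (log2 fold change 1.45, SE 0.37). Of 21 wound-repair genes and growth factors, 18 were above 0 (median 0.58, 0.65 within prefixes 115 and 116), of which 4 were nonoverlapping. *Plaur*, the receptor of urokinase, had 8.27, 10.5, 21.2 and 15.1 CPM in WT and 29.2, 33.7, 28.1 and 33.2 CPM in KO colon (log2 fold change 1.17, SE 0.28), without overlap. *F10*, coagulation factor X, which macrophages also make, had 0.651, 0.322, 1.74 and 1.77 CPM in WT and 4.48, 4.58, 4.66 and 7.28 CPM in KO colon, highest in KO mouse 813 (log2 fold change 2.21, SE 0.50, DESeq2 adjusted p = 0.00242); the median of the 18 coagulation genes was 0.28, and 0.39 within prefixes 115 and 116.

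Eicosanoid enzymes split by gene. The median of 18 prostaglandin and leukotriene genes was 0.01 (0.14 within prefixes 115 and 116), with 10 above 0. *Ptgs2*, the inducible cyclooxygenase, had 6.81, 8.12, 33.5 and 21.9 CPM in WT and 85.8, 97.5, 27.5 and 82.1 CPM in KO colon. The KO libraries were at 82.1 to 97.5 CPM apart from mouse 811, which lay within the WT range (log2 fold change 2.06, SE 0.57). *Ptges*, which makes prostaglandin E2 downstream of it, had 12.4, 9.51, 18.1 and 13.6 CPM in WT and 23.4, 27.7, 27.2 and 25.1 CPM in KO colon, nonoverlapping and just under 2-fold (log2 fold change 0.95, SE 0.21). *Alox5ap*, which hands arachidonic acid to 5-lipoxygenase for leukotriene synthesis, is described with the genes that did not vary among WT mice below.

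Collagen and fibroblast genes varied with the label prefix and among the KO mice. Of 23 genes, 21 were above 0 with a median of 0.53, but the median within prefixes 115 and 116 was 0.05 and with the prefix as a block -0.17, and 0 were nonoverlapping. It was 0.67 without KO mouse 811 and 0.92 with voom weights. Relative to the WT mean, the list was at 1.12, 0.89, -0.89 and -0.11 in the KO libraries. The 2 low ones have prefix 116 and the unusual RNA composition, which cannot be told apart here. *Col3a1*, a collagen of granulation tissue, had 758, 732, 1741 and 1698 CPM in WT and 3119, 2479.6, 529.5 and 956 CPM in KO colon. The KO mice of prefix 115 were the highest of the 8, and KO mouse 811 was the lowest (log2 fold change 0.52, SE 0.57). *Sparc*, a matrix protein of fibroblasts, had 255, 243, 564 and 562 CPM in WT and 1012, 842, 613 and 562 CPM in KO colon (log2 fold change 0.90, SE 0.36), and *Lox*, which crosslinks collagen, had 9.07, 6.32, 34.1 and 24.2 CPM in WT and 86.2, 64.9, 29.9 and 27.5 CPM in KO colon (log2 fold change 1.5, SE 0.58), with the same 2 KO mice highest.

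Acute-phase and antimicrobial products of epithelium were mixed. Of 23 genes, 16 were above 0 (median 0.76, 0.40 within prefixes 115 and 116 and 0.25 with the block), 6 were nonoverlapping and higher, and 0 were nonoverlapping and lower. *Saa3*, serum amyloid A3, had 4.36, 4.93, 125 and 71.6 CPM in WT and 509.7, 436, 639 and 413 CPM in KO colon. It lay between 413 and 639 CPM in KO colon, well above WT mouse 805 and far above the WT mice of prefix 97 (log2 fold change 3.28, SE 0.99, adjusted p = 0.359, edgeR). *Hp*, haptoglobin, had 10.7, 3.94, 45.8 and 30.5 CPM in WT and 168, 113, 109 and 77.3 CPM in KO colon (log2 fold change 2.36, SE 0.65), and *Lrg1*, another acute-phase glycoprotein, had 4.21, 5.18, 34.8 and 16.7 CPM in WT and 41.5, 49.96, 91.8 and 95.5 CPM in KO colon (log2 fold change 2.19, SE 0.66), both without overlap. *Reg3b*, a bactericidal lectin, had 28.9, 187, 717 and 982 CPM in WT and 300.1, 296, 2564 and 2216 CPM in KO colon, high in the KO mice of prefix 116 and within the WT range in those of prefix 115 (log2 fold change 1.49, SE 1.04).

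Antimicrobial genes of the Paneth and deep crypt type split, and some had very high levels in WT libraries. Of the 6 measured Paneth cell genes, 3 were above 0, of which *Mmp7* (described above) and *Pla2g2a* were nonoverlapping. *Pla2g2a*, a gene of the phospholipase family, had 5.96, 8.12, 26.3 and 15.5 CPM in WT and 27.9, 27.4, 46.2 and 33.9 CPM in KO colon, with KO mouse 804 just above WT mouse 805 (log2 fold change 1.27, SE 0.44). Its transcript level says nothing of enzyme activity. *Lyz1*, lysozyme, was the other gene above 0 (log2 fold change 0.49, SE 0.24). *Mptx1*, a pentraxin of Paneth cells, had 2717, 1019, 32.4 and 296 CPM in WT and 7.71, 8.11, 54.9 and 20.3 CPM in KO colon (log2 fold change -5.48, SE 1.30), and its neighbor *Mptx2* had 258, 97.3, 3.04 and 28.9 CPM in WT and 0.857, 0.533, 4.35 and 2.31 CPM in KO colon (log2 fold change -5.61, SE 1.28). In both, WT mouse 805 lay below KO mouse 811, so the groups overlapped despite fitted differences beyond 5 log2 units. *Ang4*, an angiogenin of Paneth and goblet cells, had 913, 216, 5.95 and 35.5 CPM in WT and 7.78, 12.4, 96.4 and 15.9 CPM in KO colon (log2 fold change -3.15, SE 1.39). Its difference was 0.63 within prefixes 115 and 116, of the opposite sign. *Itln1*, a lectin of goblet and Paneth cells, had 11.4, 2.45, 0.945 and 1.09 CPM in WT and 0.549, 0.844, 1.82 and 0.754 CPM in KO colon (log2 fold change -2.0, SE 0.82). The median of the list was -1.33 over all libraries and 0.62 within prefixes 115 and 116.

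Genes of the mature colon epithelium were lower in KO in part. Of 29 surface colonocyte genes, 20 were below 0 (median -0.27, and -0.23 within prefixes 115 and 116), 3 were nonoverlapping and lower, and DESeq2 called 5. The other 9 were above 0, up to a log2 fold change of 0.65, whereas the genes named next all lay below 0. *Slc30a10* (chr1:185454848-185468762, plus strand), which exports manganese from enterocytes, had 4.56, 7.33, 1.35 and 6.32 CPM in WT and 0.308, 0.289, 0.303 and 0.323 CPM in KO colon. The 4 KO libraries were nearly equal and far below the lowest WT library, mouse 805, and the difference was -3.65 within prefixes 115 and 116 (log2 fold change -3.99, SE 0.51, adjusted p = 0.298 in edgeR, adjusted p = 1.08e-10 in DESeq2). It had the smallest p of all 19545 genes. *Trpm6*, the magnesium channel of the colon, had 112, 123, 34.7 and 58.6 CPM in WT and 19.7, 19.5, 3.26 and 12.1 CPM in KO colon, with the lowest level in KO mouse 811 (log2 fold change -2.58, SE 0.59, adjusted p = 0.309, edgeR). *Slc20a1*, a phosphate transporter, had 316, 293, 79.5 and 108 CPM in WT and 77.4, 57.5, 45.4 and 54.6 CPM in KO colon, where WT mouse 805 and KO mouse 803 were nearly equal (log2 fold change -1.76, SE 0.45). *Slc34a2*, a second phosphate transporter, had 67.5, 66.2, 22.5 and 27.7 CPM in WT and 10.7, 8.80, 17.5 and 11.8 CPM in KO colon (log2 fold change -1.91, SE 0.41). *Atp12a*, the colonic proton pump, had 178, 226, 44.8 and 111 CPM in WT and 29.7, 45.5, 39.6 and 35.5 CPM in KO colon, overlapping at WT mouse 805 (log2 fold change -1.90, SE 0.44). *Slc37a2*, a sugar phosphate exchanger, had 361, 495, 22.5 and 74.2 CPM in WT and 9.87, 10.6, 37.9 and 14.7 CPM in KO colon (log2 fold change -3.71, SE 0.93), with KO mouse 811 above WT mouse 805.

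The *Slc30a10* promoter (chr1:185454598-185454897, plus strand, RefSeq on GRCm38.p6) is shown for the gene with the smallest p. It has no match to the 3 sets of letters named above in this window.
Slc30a10: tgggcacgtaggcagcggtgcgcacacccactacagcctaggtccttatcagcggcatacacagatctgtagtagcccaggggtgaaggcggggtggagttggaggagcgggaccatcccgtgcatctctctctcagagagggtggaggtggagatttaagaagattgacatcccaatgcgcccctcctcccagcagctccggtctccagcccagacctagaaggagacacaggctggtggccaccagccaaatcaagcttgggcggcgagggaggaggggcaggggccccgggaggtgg

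Further epithelial genes were lower in all 4 KO mice. *Slc15a1*, a peptide transporter that small intestine expresses more than colon, had 94.3, 110.2, 64.3 and 105 CPM in WT and 46.6, 40.4, 48.2 and 50.2 CPM in KO colon. The KO range of 40.4 to 50.2 CPM was narrow and below all WT mice, and the difference was -0.89 within prefixes 115 and 116 (log2 fold change -1.01, SE 0.21, DESeq2 adjusted p = 0.00242). *Tgm3*, a transglutaminase of differentiated epithelium, had 1063, 1284, 234 and 459.7 CPM in WT and 143, 117, 182 and 192 CPM in KO colon (log2 fold change -2.26, SE 0.50), and *Itih2*, a hyaluronan-binding protein, had 12.8, 13.7, 2.61 and 4.47 CPM in WT and 1.89, 1.0, 0.947 and 0.646 CPM in KO colon (log2 fold change -2.89, SE 0.58). Both were separate, with differences of -1.15 and -1.67 within prefixes 115 and 116. *Tmprss13*, a membrane serine protease, had 5.11, 6.17, 1.66 and 3.23 CPM in WT and 0.725, 0.955, 1.06 and 1.01 CPM in KO colon (log2 fold change -2.10, SE 0.40), also separate.

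Goblet cell genes were lower in part. Of 20 measured, 13 were below 0 (median -0.22, and -0.27 within prefixes 115 and 116) and 1 was nonoverlapping with a fold change over 2. That was *Clca1*, a secreted protease of the mucus layer, with 15112, 8244, 3779.7 and 5650.3 CPM in WT and 2746, 2187, 2033 and 2219 CPM in KO colon. The KO libraries were close to each other and below all WT libraries (log2 fold change -1.84, SE 0.43, adjusted p = 0.311 in edgeR, adjusted p = 0.00189 in DESeq2). *Fcgbp*, another component of mucus, had 5166, 3554, 2336 and 3146 CPM in WT and 1825, 1561, 1125 and 2598 CPM in KO colon, overlapping at KO mouse 813 (log2 fold change -1.0, SE 0.35). *Atoh1*, the transcription factor that commits cells to the secretory lineage, had 56.4, 50.1, 46.1 and 57.3 CPM in WT and 43.3, 31.3, 34.3 and 38.3 CPM in KO colon, nonoverlapping by less than 2-fold and -0.51 within prefixes 115 and 116 (log2 fold change -0.51, SE 0.17). *Spink4*, a goblet cell peptide, went the other way at 711, 639, 963 and 737 CPM in WT and 1070.1, 716, 2789 and 1503 CPM in KO colon, highest in KO mice 811 and 813 (log2 fold change 0.99, SE 0.40).

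Genes of tuft cells, the chemosensory cells of the epithelium, were below 0 for the most part. Of 15 genes, 11 were below 0 with a median of -0.57 (-0.16 within prefixes 115 and 116), and 0 were nonoverlapping. The other 4 were above 0, up to a log2 fold change of 0.86, whereas the 2 genes named next lay below 0. *Pou2f3*, their master transcription factor, had 2.30, 1.88, 0.511 and 1.12 CPM in WT and 0.571, 0.533, 0.227 and 0.431 CPM in KO colon (log2 fold change -1.67, SE 0.48), and *Gnat3*, the taste G protein, had 3.11, 2.48, 0.153 and 1.22 CPM in WT and 0.462, 0.244, 0.417 and 0.345 CPM in KO colon (log2 fold change -2.22, SE 0.72). In both, WT mouse 805 was within or below the range of the KO mice. Of 26 cytochrome P450 and xenobiotic genes, 23 were below 0 (median -0.52, and -0.17 within prefixes 115 and 116) and 3 above it, up to a log2 fold change of 1.24. *Ces1b*, a carboxylesterase, had 1.65, 1.76, 0.511 and 0.559 CPM in WT and 0.264, 0.0889, 0.265 and 0.237 CPM in KO colon (log2 fold change -2.37, SE 0.55), and *Gstm1*, a glutathione transferase, had 234, 221, 146 and 151 CPM in WT and 131, 104, 99.3 and 68.8 CPM in KO colon (log2 fold change -0.90, SE 0.26), both separate. Of 10 posterior Hox genes, 9 were below 0 (median -0.43, and -0.30 within prefixes 115 and 116). *Hoxd10* had 0.952, 1.21, 0.766 and 1.07 CPM in WT and 0.308, 0.422, 0.454 and 0.539 CPM in KO colon (log2 fold change -1.21, SE 0.29) and *Hoxa13* had 40.5, 39.9, 37.2 and 38.3 CPM in WT and 32.3, 34.4, 26.2 and 28.4 CPM in KO colon (log2 fold change -0.36, SE 0.16), without overlap, whereas *Hoxb13* had 133, 154, 109 and 105 CPM in WT and 79.1, 77.6, 133 and 104 CPM in KO colon (log2 fold change -0.35, SE 0.23). The position along the colon that each library holds is not given in the labels, and its part in the epithelial differences was not tested.

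Transcripts of the muscle wall were lower in KO, with KO mouse 811 far from the rest. All 12 smooth muscle genes were below 0 (median -0.45, and -0.31 within prefixes 115 and 116), and 0 were nonoverlapping. *Myh11*, the smooth muscle myosin, had 1525, 1339.8, 703 and 1334 CPM in WT and 879.8, 634, 39.8 and 620.4 CPM in KO colon (log2 fold change -1.17, SE 0.70). KO mouse 811 was far below every other library, and the remaining KO mice overlapped with WT mouse 805. *Mylk*, myosin light chain kinase, had 513, 463, 247 and 400.3 CPM in WT and 296, 238, 167 and 252 CPM in KO colon (log2 fold change -0.77, SE 0.28). Of 20 enteric neuron and glia genes, 15 were below 0 (median -0.45, and -0.20 within prefixes 115 and 116). *Syt1*, a synaptic vesicle protein, had 12, 8.40, 6.13 and 7.17 CPM in WT and 4.73, 5.67, 2.69 and 2.00 CPM in KO colon, with the lowest levels in KO mice 811 and 813 (log2 fold change -1.15, SE 0.36). Stem cell and Wnt target genes were below 0 in 13 of 17 cases (median -0.35, -0.24 within prefixes 115 and 116 and -0.15 without mouse 811). Their level relative to the WT mean was -1.21 in mouse 811 and between -0.21 and -0.08 in the other KO mice. Of 20 cell cycle genes, 17 were above 0 with a median of 0.19 (0.03 within prefixes 115 and 116).

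Genes of glycolysis and hypoxia were higher by a small and even amount. Of 21 genes, 19 were above 0 (median 0.43, and 0.27 within prefixes 115 and 116) and 3 were nonoverlapping over 2-fold. Relative to the WT mean, the list stood at -0.26, -0.06, 0.21 and 0.11 in WT and at 0.43, 0.46, 0.54 and 0.48 in KO libraries, without overlap. *Slc16a3*, which exports lactate, had 9.02, 13.4, 29.6 and 18.7 CPM in WT and 44.9, 46.1, 57.8 and 47.0 CPM in KO colon (log2 fold change 1.47, SE 0.34). *Hk3*, the hexokinase of myeloid cells, had 1.80, 1.81, 4.29 and 4.18 CPM in WT and 6.02, 8.04, 11.6 and 18.1 CPM in KO colon (log2 fold change 1.85, SE 0.43), and *Bnip3*, a mitophagy receptor induced by hypoxia, had 9.12, 8.45, 10.9 and 11.7 CPM in WT and 16, 15.6, 29.3 and 24.3 CPM in KO colon (log2 fold change 1.08, SE 0.25), each without overlap. *Hmox1*, heme oxygenase, had 7.51, 6.27, 14.5 and 12.1 CPM in WT and 20.7, 22.3, 27.7 and 25.3 CPM in KO colon (log2 fold change 1.25, SE 0.28). Nuclear-encoded oxidative phosphorylation genes had a median of 0.34 (0.36 within prefixes 115 and 116 and -0.04 without KO mouse 811), with 1.12 in KO mouse 811 and -0.13 to 0.16 in the other KO mice relative to the WT mean.

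A small set of genes differed between genotypes although the WT mice of prefix 97 and of prefixes 115 and 116 were alike. By a rule chosen after the values had been seen (mean log2 CPM of the WT groups within 0.25 of each other, a mean of at least 1 CPM, nonoverlapping groups and a fold change over 2), 19 genes qualified, 17 higher and 2 lower. *Mmp12*, the elastase of macrophages, had 2.5, 2.5, 2.40 and 1.85 CPM in WT and 7.19, 4.42, 8.71 and 6.96 CPM in KO colon. The WT mice lay at 1.85 to 2.5 CPM and the KO mice at 4.42 to 8.71 CPM, and the difference was 1.65 within prefixes 115 and 116 (log2 fold change 1.56, SE 0.25, adjusted p = 0.305 in edgeR, adjusted p = 8.02e-05 in DESeq2). As the rule picks genes with a small gap between the WT prefixes, similar values with and without prefix 97 follow from the choice and are not separate support. *Alox5ap* had 5.96, 4.88, 5.95 and 5.71 CPM in WT and 14.9, 13.1, 29.7 and 14.2 CPM in KO colon. The WT mice were nearly equal, 3 KO mice lay between 13.1 and 14.9 CPM and mouse 811 was at 29.7 CPM (log2 fold change 1.67, SE 0.28, adjusted p = 0.305 in edgeR, adjusted p = 0.000288 in DESeq2). *Cd86*, the costimulatory ligand of antigen-presenting cells, had 4.71, 4.21, 4.90 and 4.21 CPM in WT and 6.57, 8.26, 10.6 and 13.2 CPM in KO colon (log2 fold change 1.10, SE 0.24). *Cd69*, an early activation marker of lymphocytes, had 1.45, 1.07, 1.10 and 1.24 CPM in WT and 1.6, 2.27, 3.18 and 3.88 CPM in KO colon (log2 fold change 1.17, SE 0.31), and *Fxyd5*, a regulator of the sodium pump, had 21.4, 19, 25.0 and 21.4 CPM in WT and 35.7, 40.9, 63.2 and 50.6 CPM in KO colon (log2 fold change 1.13, SE 0.21). In these genes KO mouse 811 or 813 was the highest. *Rps12*, a ribosomal protein gene that also qualified, had 667, 726, 739 and 705 CPM in WT and 749.9, 746, 2737 and 2571 CPM in KO colon, so its difference lay in KO mice 811 and 813 and the KO mice of prefix 115 were near WT. *Sec61g*, *Cops9*, *Gngt2*, *Ccl12* and *BC028528* also qualified and were highest in the same KO mice. With voom weights their log2 fold changes were 0.42, 0.14, 0.49, 0.53 and 0.53, against 1.33 for both *Mmp12* and *Alox5ap*. The part of RNA composition in this set was not tested. The 2 lower genes were *Dnase1l3* and *Avpr1b*, a vasopressin receptor. *Avpr1b* had 1.70, 1.29, 1.66 and 1.29 CPM in WT and 0.967, 0.533, 0.454 and 0.668 CPM in KO colon (log2 fold change -1.16, SE 0.30).

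The same lists were set beside the KO minus WT differences of the other stages, which come from different mice. No label prefix of the D19 mice occurs at D0 or D80. Here and in the test between stages below, a difference between stages thus cannot be told apart from one between prefixes. The neutrophil list had a median of -0.13 in untreated colon, where only 7 of its genes had enough counts, and 1.75 at D80 (22 genes). The interferon-γ list had 0.20 at D0 and 1.33 at D80, and the MMP list -0.25 and 1.0. Monocyte chemokines had -0.11 and 0.35, and the stem cell and Wnt list 0.05 and 0.78. Smooth muscle genes were also below 0 at both other stages, with -0.60 at D0 and -0.31 at D80, as were enteric neuron and glia genes, with -0.62 and -0.89. Over all genes the medians were 0.01 at both stages. *Alox5ap* had -0.02 at D0 and -0.20 at D80, and *Slc30a10* had 0.75 and -2.39.

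A test of the difference between stages called 6 of 20149 genes (0.0298%) as lower in KO relative to WT at D19 than at D0, and 0 as higher, in edgeR's quasi-likelihood test of the interaction (1643 genes at an unadjusted p under 0.05). Of the 6 genes, 3 are the neighboring *Gal3st2*, *Gal3st2b* and *Gal3st2c* on chromosome 1, which encode sulfotransferases for mucin sugars. They are close copies and may share reads, so they are not independent. *Gal3st2c* had 1.85, 2.75, 2.31 and 1.44 CPM in WT and 21.3, 7.08, 6.45 and 20.2 CPM in KO colon at D0. At D19 it had 67.8, 62.7, 23.4 and 41.0 CPM in WT and 16.8, 6.82, 17.0 and 15 CPM in KO colon (these CPM are scaled over all 32 libraries). The KO mice lay in about the same range at both stages, each WT mouse at D19 was far above each WT mouse at D0, and the order of the genotypes was reversed (interaction -4.53, SE 0.63, adjusted p = 0.0264). *Foxq1*, a transcription factor of mucous cells, had 1.02, 0.662, 0.769 and 0.973 CPM in WT and 3.63, 2.76, 2.09 and 2.75 CPM in KO colon at D0, and 4.34, 5.61, 6.05 and 4.28 and 3.98, 4.24, 3.33 and 2.98 CPM at D19. WT mice exceeded KO mice at D19 and lay below them at D0 (interaction -2.18, SE 0.31, adjusted p = 0.0264).

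*Slc30a10* had 8.12, 7.39, 6.29 and 6.65 CPM in WT and 13, 2.36, 15.7 and 16.3 CPM in KO colon at D0, with 3 of 4 KO mice above WT, and the D19 values were of the opposite order (interaction -4.72, SE 0.74, adjusted p = 0.0349). *Itih2* had 1.63, 1.83, 0.950 and 1.32 CPM in WT and 5.37, 3.89, 1.91 and 5.95 CPM in KO colon at D0, with all KO mice above WT at D0 and all below WT at D19 (interaction -4.47, SE 0.72, adjusted p = 0.0411). These calls depended on single libraries. Each of the 6 genes was called in 2 to 4 of the 8 fits that left out a D19 library, and 0 were called in the fits that lacked KO mouse 803 or 813 or either WT mouse of prefix 97, with the highest adjusted p between 0.103 and 0.161. Against D80, 0 of 20335 genes were called (0%, lowest adjusted p 0.481, 2106 at an unadjusted p under 0.05). DESeq2 called 18 genes as lower and 0 as higher in that comparison.

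**Figure D4:**
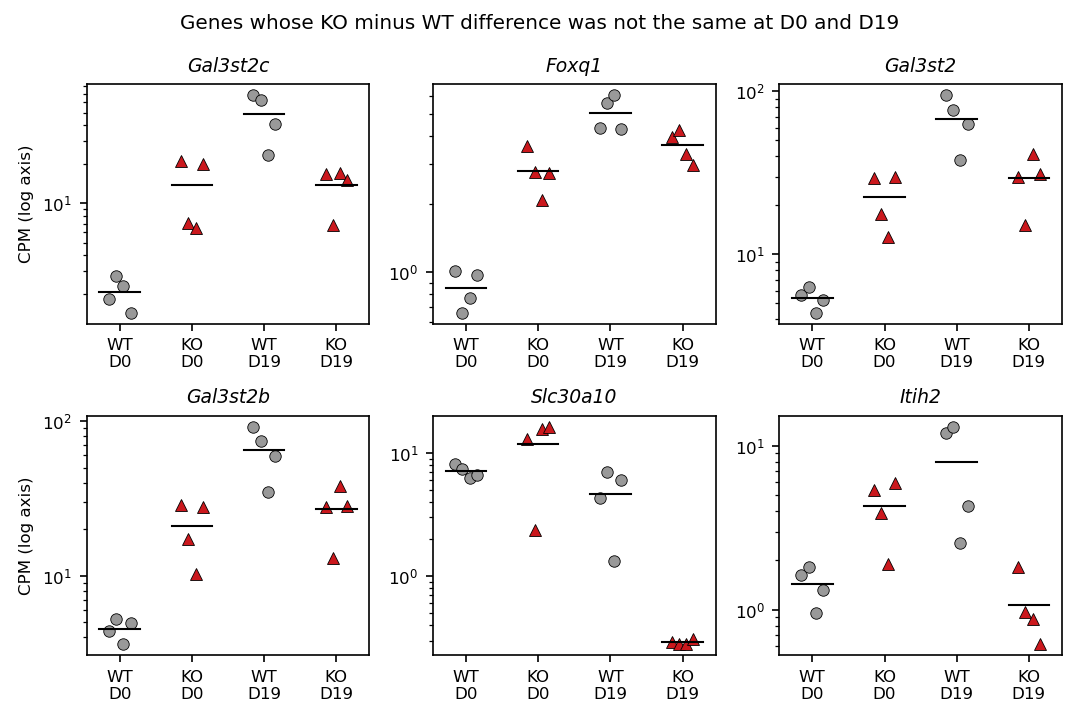
CPM (vertical axis, log scale, scaled over all 32 libraries) of the 6 genes whose KO minus WT difference at D19 was called as different from that at D0. Gray circles are WT and red triangles KO mice, 4 in each group, and black lines are group means. The genotypes change order between D0 and D19 in the panels, with overlap of single mice for *Slc30a10* at D0 and for *Gal3st2* and *Gal3st2b* at D19.

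The share of promoters that hold the 3 sets of letters was counted for the genes at each end. Of the 100 nonoverlapping genes with the largest log2 fold change, 80 had a RefSeq promoter (88 promoters in all, GRCm38.p6, 250 bases before to 50 after the start). NF-κB type letters were in 12.5% of them, interferon-response type letters in 19.3% and AP-1 type letters in 18.2%. Over all measured genes (12613 matched, 16042 promoters) the shares were 6.07%, 7.47% and 5.90%. For the 100 nonoverlapping genes with the smallest log2 fold change (64 matched, 80 promoters) they were 3.75%, 7.5% and 7.5%. These are counts of letters without a test and say nothing of binding.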

How the data were processed

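Whole colon gave 1 single-end RNA-Seq library per mouse. The deposited table holds the raw counts of reads per gene for 55291 gene symbols, which the authors made with FastQC 0.11.5 (read quality), STAR (alignment, mm10) and Subread (counting on GENCODE genes). Whether strand was used in counting is not given in the sources used here, so overlapping genes on opposite strands may share reads. Depth was 18951121 to 47623288 counts per library, which limits precision for genes of low CPM.

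The members, the 59 gene lists and the tests were chosen with earlier results of these data known, and 4 listed symbols had no row in the table. The D19 groups were tested with the quasi-likelihood test of edgeR 4.0.16 (R 4.3.3) after TMM and filterByExpr, with Benjamini-Hochberg adjustment. This filter keeps a gene with enough counts in as many libraries as a group holds. A gene near 0 in 1 group can thus enter through the other group alone, which adds to the one-sided counts and medians of its list. A DEG had a change of more than 2-fold and an adjusted p under 0.05. An SE is the log2 fold change divided by the square root of F. List levels average log2 CPM (prior count 1). The p-values measure the spread between mice, and the labels give no cages or litters. Genes named are *Dnase1l3*, up to 12 at each end of the nonoverlapping genes (unadjusted p under 0.01, mean of at least 1 CPM, no predicted genes, pseudogenes or immunoglobulin segments) and, per list, up to 5 members of smallest p, the most abundant, up to 2 against the median and those DESeq2 called, from which a selection is printed. *Gal3st2*, *Gal3st2b* and *Foxq1* are named as calls of the test between stages. *Avpr1b*, *BC028528*, *Ccl12*, *Cd69*, *Cd86*, *Cops9*, *Fxyd5*, *Gbp2*, *Gngt2*, *Rps12* and *Sec61g* were chosen after their values had been seen. *Muc2*, *Sftpc*, *Pga5*, *Alb* and *Insl6* only check the tissue.

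Every D19 result was computed again with DESeq2 1.42.0, with RLE in place of TMM, unfiltered, with at least 10 counts required per library, with all 32 libraries fitted together, with the label prefix blocked, without prefix 97, with limma 3.58.1 (voom, sample weights), without edgeR's legacy option, and without each mouse in turn. The stage comparisons were repeated with DESeq2 and without each D19 mouse. The code was tested on simulated data. Gene positions come from GENCODE M21 and promoters from RefSeq, both on GRCm38, the same build as mm10.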

Additional observations from a re-analysis of the deposited data

Results flagged for a closer look

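Single libraries far from the other 3 of their group were looked for in 400 groups of 4 values, and 17 passed the critical value for 4 samples, where chance alone gives about 1 in 20 groups. KO mouse 811 was the library in 10 of the 17. It was the lowest KO library for *Osm* (3.29 CPM, the others at 6.95 to 7.91), *Adam8* (7.95 CPM, the others at 14.9 to 16.8), *Ptgs2* (27.5 CPM, the others at 82.1 to 97.5) and *Myh11* (39.8 CPM, the others at 620.4 to 880). Its mean log2 CPM was the lowest for stem cell and Wnt target genes (2.78), anterior Hox genes (-0.85), genes of interstitial cells of Cajal (2.35) and immediate early and stress genes (3.72). It was the highest KO library for *Ly6a2*, a Ly6 family gene (5.68 CPM, the others at 1.65 to 1.81), and *Alox5ap* (29.7 CPM).

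Of the other KO mice, 803 was the highest for *Il1r2* (18.3 CPM), 813 was the highest for *F10* (7.28 CPM), and 804 was the lowest for *Gal3st2c* (7.0 CPM) and *Ces1b* (0.0889 CPM). In WT, mouse 812 was the lowest for *Mmp12* (1.85 CPM), mouse 805 was the lowest for the mean of small-intestinal enterocyte genes (4.67 log2 CPM), and mouse 685 had the lowest total, 18951121 counts against 36050712 to 39240995 in the other 3.

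The KO minus WT difference at D19 was called as different from that at D0 for 6 genes, with log2 differences between the stages of -4.53 for *Gal3st2c*, -2.18 for *Foxq1*, -3.26 for *Gal3st2*, -3.48 for *Gal3st2b*, -4.72 for *Slc30a10* and -4.47 for *Itih2*.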

How the results depend on the processing

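No paired analysis was possible because the replicate numbers are mouse numbers, which the genotypes do not share. The count of DEGs, 0 in each direction in the main test, was 218 higher and 90 lower with DESeq2, 137 and 40 with all 32 libraries in a single fit, and 393 and 173 with voom weights; it was 0 with the other settings that kept all 8 libraries and with prefixes 115 and 116 only. When single libraries were left out, it stayed at 0 higher and was 0 to 1 lower; the gene was *Slc30a10*, called without WT mouse 805 (log2 fold change -4.30, edgeR adjusted p = 0.0043). The counts of nonoverlapping genes, 359 higher and 135 lower, were 224 and 72 with the stricter filter and 203 and 80 with the prefix as a block. The lower count was also 324 with DESeq2, 318 without a filter and 78 with voom weights, and leaving out a library gave 344 to 637 higher and 116 to 508 lower. The higher count was 580 without WT mouse 805 and 637 without KO mouse 803. The lower count was 508 without WT mouse 805, 226 without WT mouse 812, and 321, 272, 216 and 273 without KO mice 803, 804, 811 and 813. Of the 59 lists, 38 had a median above 0, and 37 to 41 when a library was left out. Against D0, DESeq2 called 66 genes higher and 100 lower in place of 0 and 6, and leaving out a library gave 0 to 12 and 0 to 30, with 12 and 29 without WT mouse 805 and 3 and 30 without KO mouse 811. Against D80, DESeq2 called 18 lower in place of 0, and leaving out a library gave 0 in both directions.

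Of the 59 list medians, 18 had the other sign under at least 1 alternative. For 5 of these the median had been larger than the spread of the list between mice, and 6 named genes turned as well. With the prefix as a block the medians of Paneth cell genes (0.62) and adipocyte genes (0.14) were above 0, as with prefixes 115 and 116 only (0.25 and 0.12, over the genes that passed the filter in those libraries), and *Ang4* was at 0.71 and 0.63. The fibroblast median was -0.17 with the block, and that of nuclear-encoded oxidative phosphorylation -0.11 with voom weights and -0.041 without KO mouse 811. The block also turned *Col3a1* (-0.36) and *Reg3b* (-0.19). With voom weights the MHC class II median (-0.085), *H2-K1* (-0.075), *H2-Ab1* (-0.10) and *Cd74* (-0.085) were below 0. The stricter filter turned the IL-17, IL-22 and IL-23 list (-0.26), and the tight junction list, which ranged from -0.13 to 0.061 when a library was left out, was at 0.061 without KO mouse 804 and 0.015 without KO mouse 813. Without KO mouse 813 the medians of type I interferon-stimulated genes, TNF and NF-κB response genes and B cell genes were 0.31, 0.50 and 0.30, and without KO mouse 803 those of fibroblast, erythroid and smooth muscle genes were 0.12, 0.61 and -0.69. With voom weights the type I interferon median was 0.069. The stricter filter gave medians of 0.57 for the interleukin-1 family and 0.31 for the interleukin-6 family and STAT3 targets. The Paneth cell median ranged from -1.56 to -0.11 when a library was left out. The causes were not tested. Depth limits the genes below 1 CPM, such as *Prtn3*, where a library holds few reads, and 4 mice per group limit all comparisons.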

Other observations

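Other immune and blood lists were also mostly above 0 in KO colon at D19. Of 21 B cell and plasma cell genes, 17 were higher (median 0.55 on the log2 scale), and of 17 complement components 15 were higher with a median of 0.42 and 3 nonoverlapping. Markers of dendritic cells, the cells known for *Dnase1l3*, differed little. They were higher in 9 of 15 cases, beside 50.8% of all genes, with a median of 0.36. The mean of this list overlapped between the groups, and KO mouse 803, at -0.20 relative to the WT mean, lay below every WT mouse. All 5 measured erythroid genes were higher (median 1.03), with 0 nonoverlapping, and KO mice 803 and 811 were the highest, at 1.77 and 1.68 log2 units above the WT mean. Of 18 TNF and NF-κB response genes, 14 were higher with a median of 0.78, and *Ier3*, a target of NF-κB, had 7.51, 8.12, 18.7 and 14.3 CPM in WT and 30.5, 32.5, 25.8 and 22.1 CPM in KO colon without overlap (log2 fold change 1.19, SE 0.31). Within prefixes 115 and 116 the median was 0.36 for B cell and plasma cell genes, 0.20 for complement and 0.23 for dendritic cell markers. It was 1.40 for erythroid genes and 0.54 for TNF and NF-κB response genes. Mast cell genes had a median of 0.59 that was 0.08 within prefixes 115 and 116.

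Several epithelial and stress lists had small medians, beside 0.01 over all genes. They were -0.11 for 17 tight junction genes, -0.02 for 12 keratins, -0.21 for 17 enteroendocrine genes, -0.04 for 16 endoplasmic reticulum stress genes and -0.07 for 15 p53 targets. In the same order, they were -0.04, -0.09, -0.28, -0.08 and -0.05 within prefixes 115 and 116. Adipocyte genes had a median of -0.71 over 11 genes, with *Plin1*, the coat protein of fat droplets, at 1.20, 3.62, 0.843 and 0.827 CPM in WT and 0.264, 0.578, 0.568 and 0.453 CPM in KO colon (log2 fold change -1.81, SE 0.54). WT mouse 686 had the highest *Plin1* level, and the median of the list was 0.12 within prefixes 115 and 116.

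Some genes of muscle and cytoskeleton that are named by their rank among all genes were also lower. *Tnnt2*, a troponin of striated muscle, had 6.66, 6.14, 1.51 and 2.29 CPM in WT and 0.901, 0.844, 0.833 and 0.733 CPM in KO colon (log2 fold change -2.31, SE 0.48). *Tppp*, which binds tubulin, had 77.2, 78.0, 22.5 and 36.7 CPM in WT and 21.3, 16, 6.93 and 11 CPM in KO colon (log2 fold change -1.96, SE 0.47), with KO mouse 803 just below WT mouse 805. Among the higher genes of that rule, *Spp1*, osteopontin of macrophages, had 0.150, 0.297, 1.69 and 1.02 CPM in WT and 9.63, 6.31, 4.43 and 2.72 CPM in KO colon (log2 fold change 2.83, SE 0.67), and *Wfdc21*, a small secreted protein, had 0.200, 0.0495, 1.94 and 0.292 CPM in WT and 6.18, 4.02, 6.85 and 6.79 CPM in KO colon (log2 fold change 3.22, SE 0.83). Both were separate, and the KO mice of prefix 115 had the highest *Spp1*.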
